A study of Mus musculus with 22 samples.

Results

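The 34 genes described here encode proteins of G2 phase and mitosis, and they were chosen by name from 56691 genes in the deposited tables. All 34 were found in both tables and all 34 passed the filter on low counts. They were measured by bulk RNA sequencing of CD11b+ cells, enriched on magnetic beads from whole brains of CF-1 wildtype mice, an outbred strain. CD11b is an integrin chain carried by microglia and the rest of the myeloid lineage, and the sample labels call the cells monocytes. HIE animals modelled neonatal hypoxic ischemic encephalopathy by LPS given to the dam late in gestation and a short global hypoxia of the pup, and controls received saline and normoxia. There were 4 HIE and 4 control animals at P7 and 4 HIE, 4 control and 4 Hypoxia animals at P14, with 22 libraries from 20 animals in all. The study's methods do not describe the Hypoxia group, which is taken by its label. The HIE animals at P7 were all labelled male, the P7 controls were 2 males and 2 females, and each P14 group held 2 males and 2 females. The labels give the 4 early controls postnatal days 8, 9, 10 and 11, whereas the methods give P7, which is used here. The label text on brain collection names P7 for every sample, P14 libraries included.

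Animals share name prefixes in pairs, which the labels do not define and which are called litters here. They were N5 and N8 for HIE at P7, P6H63 and P6H55 for controls at P7, P4H1 and P6H12 for HIE at P14, P4H4 and P6H8 for controls at P14, and P6H7 and P6H9 for Hypoxia. No litter held 2 treatments, so litter and treatment cannot be told apart. The tests count littermates as independent animals, so their SEs and p values do not allow for likeness within a litter. The P7 libraries were in one table and the P14 libraries in another, so age and table cannot be told apart either. Whole-library totals were 70191584 to 83469067 counts at P7 and 29751540 to 46404123 at P14. The lowest count of any of the 34 genes in an animal was 29, above the 3 counts taken as the floor.

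To divide, a cell brings the kinase Cdk1 together with cyclin B, condenses its chromosomes, attaches them to a spindle of microtubules and splits. A checkpoint at the kinetochores holds the cell until every chromosome is attached, and then the anaphase-promoting complex (APC/C) marks cyclin B and other proteins for destruction. Most of these genes are transcribed only late in the cell cycle, so their RNA is a common mark of dividing cells. Microglia multiply in the rodent brain during the first weeks after birth and divide little once the brain is mature, while other brain cells, such as the granule cell precursors of the cerebellum, divide over the same period.

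Late cell cycle genes are known to share promoter elements, CCAAT boxes and the cell cycle genes homology region (CHR), whose letters are TTTGAA or TTCGAA. The promoter windows of RefSeq, 250 bases before to 50 bases after the start site, were searched for these letters on both strands, and 28 of the 34 genes had a window in the table, which is of GRCm38.p6 (not Aurkb, Ccna2, Cdc25c, Foxm1, Kif20a or Tpx2). CCAAT was in 82.1% of the 28 windows, against 37.9% of the windows of all 27025 genes. TTTGAA was in 75.0% against 18.1%, and TTCGAA in 10.7% against 1.57%. A CCAAT together with either CHR form was in 20 of the 28 windows, or 71.4%, against 7.7% of all genes. TTCGAA reads the same on both strands, and a CCAAT and a CHR that adjoin can share a base. A match of letters is a description of the sequence and not a measured binding site. The members without both elements were Anln, Birc5, Ccnb1, Cenpe, Kif2c, Mad2l1, Nek2 and Nusap1.

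As the 4 members with the highest mean log2 CPM at P7 among those that hold both elements, Mki67, Top2a, Cenpf and Racgap1 are shown with their windows from 250 bases before to 30 bases after the start site, 5′ to 3′ on the gene's strand, with the motif letters of either strand in capitals. Each window was matched letter for letter to a single place in GRCm39. Mki67 lies at chr7:135318079-135318358 on the minus strand, and 221 of its 280 bases fall in an exon of a Mki67 transcript in GENCODE M39. Top2a lies at chr11:98914986-98915265 on the minus strand with 77 bases in its own exons. Cenpf lies at chr1:189420254-189420533 on the minus strand, with 62 bases in its own exons and 168 in an exon of Gm70257. Racgap1 lies at chr15:99549508-99549787 on the minus strand, inside the annotated span of the gene, with 50 bases in its own exons.
Mki67: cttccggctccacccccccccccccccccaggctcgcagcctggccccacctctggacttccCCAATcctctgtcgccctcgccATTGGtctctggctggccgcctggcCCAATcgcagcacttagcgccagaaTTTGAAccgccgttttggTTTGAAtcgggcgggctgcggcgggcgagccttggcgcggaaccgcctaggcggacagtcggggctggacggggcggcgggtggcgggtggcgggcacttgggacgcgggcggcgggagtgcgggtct
Top2a: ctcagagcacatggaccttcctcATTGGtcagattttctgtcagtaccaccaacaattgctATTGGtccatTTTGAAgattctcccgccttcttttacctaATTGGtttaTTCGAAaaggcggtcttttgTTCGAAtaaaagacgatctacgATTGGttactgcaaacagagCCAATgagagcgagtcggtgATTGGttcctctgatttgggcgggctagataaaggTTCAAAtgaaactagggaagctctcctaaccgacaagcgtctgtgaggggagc
Cenpf: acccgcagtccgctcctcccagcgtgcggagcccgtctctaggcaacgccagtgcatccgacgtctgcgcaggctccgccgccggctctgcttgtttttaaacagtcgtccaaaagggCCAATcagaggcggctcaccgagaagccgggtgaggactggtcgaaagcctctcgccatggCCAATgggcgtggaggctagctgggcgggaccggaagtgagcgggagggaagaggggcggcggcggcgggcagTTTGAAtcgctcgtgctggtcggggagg
Racgap1: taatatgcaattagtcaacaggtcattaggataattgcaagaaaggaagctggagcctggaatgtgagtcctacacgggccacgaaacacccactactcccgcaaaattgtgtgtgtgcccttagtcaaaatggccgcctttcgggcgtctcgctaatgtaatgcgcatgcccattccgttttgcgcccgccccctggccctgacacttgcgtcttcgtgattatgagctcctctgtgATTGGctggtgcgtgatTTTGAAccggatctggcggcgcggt
The Mki67 window holds CCAAT 3 times, at positions -188, -166 and -141 from the start site, and TTTGAA 2 times, at -116 and -98. In the Top2a window CCAAT occurs 6 times and a CHR form 4 times. The Cenpf and Racgap1 windows each hold 1 TTTGAA, which begins 3 and 6 bases into the transcribed part.

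Between P7 and P14 every member fell, in controls and in HIE animals alike. In controls 34 of 34 passed the threshold as lower at P14, against a background of 26.0% of all genes tested, and the median log2 fold change of the 34 was -2.33 against -0.04 over all genes. In HIE animals 34 of 34 passed as lower, against a background of 17.0%, with a median of -2.47 against 0.04 over all genes. The values of every P14 animal lay below those of every P7 animal of the same treatment for all 34 genes, under both TMM and library-size scaling, where 19.1% of all genes in controls and 22.5% in HIE animals separated downwards under TMM, and 23.1% and 24.0% under library size. DESeq2 also called 34 of 34 lower in both, where it called 26.5% of all genes lower in controls and 18.6% in HIE animals. Under library-size scaling the medians were -2.50 in controls, with -0.20 over all genes, and -2.48 in HIE animals.

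Among the chromosome proteins, Mki67 encodes Ki-67, which coats mitotic chromosomes and is the common stain for dividing cells. Its level in CPM, the count scaled by the library total and its TMM factor, was 503, 506, 452 and 517 in the HIE animals and 355, 327, 487 and 428 in the controls at P7. At P14 it was 93.3, 99.3, 108 and 90.8 in HIE, 116, 59.9, 110.2 and 98.6 in controls and 104, 64.8, 119 and 98.9 in Hypoxia animals. The ages did not overlap, and at P14 a single control and a single Hypoxia animal, each with replicate number 2, were lower than the other 10. The log2 fold change of Mki67 from P7 to P14 was -2.06 (SE 0.20) in controls and -2.34 (SE 0.20) in HIE animals.

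Top2a encodes topoisomerase II alpha, which untangles sister DNA. It was at 322, 319, 269 and 306 CPM in HIE and 241, 244, 263 and 230.1 CPM in control animals at P7. By P14 it was at 70.2, 59.2, 63.1 and 51.0 CPM in HIE, 73.9, 37.3, 60.8 and 51.0 CPM in control and 59.9, 46.5, 59.7 and 60.1 CPM in Hypoxia animals. All 4 HIE values at P7 lay above all 4 control values under TMM but not under library-size scaling, and the 3 groups overlapped at P14. Top2a fell by 2.13 (SE 0.16) on the log2 scale in controls and by 2.32 (SE 0.16) in HIE animals.

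Birc5 encodes survivin, a subunit of the chromosomal passenger complex that corrects attachments and then moves to the midzone. At P7 its CPM was 24.3, 24.4, 21.4 and 24.4 in HIE and 19.5, 17.9, 22.0 and 20.5 in controls. At P14 the CPM of Birc5 was 5.06, 4.80, 5.09 and 4.17 in HIE, 5.07, 2.45, 5.82 and 2.46 in controls and 5.20, 3.40, 3.95 and 4.68 in Hypoxia. The 2 low P14 controls were the 2 animals of litter P6H8. Its log2 fold change with age was -2.34 (SE 0.23) in controls and -2.31 (SE 0.23) in HIE animals.

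Some of the smallest changes were also among the chromosome proteins. Cenpf, an outer kinetochore protein, changed by -1.65 (SE 0.17) in controls and -1.69 (SE 0.17) in HIE animals on the log2 scale. Cenpa, the histone H3 variant that marks the centromere, changed by -1.78 (SE 0.17) in controls and -2.08 (SE 0.17) in HIE animals. The remaining chromosome members, Aurkb, the kinase of the passenger complex, and Cenpe, a kinetochore motor, lay between -1.97 and -2.63.

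Among kinases, cyclins and their regulators, Cdk1 is the kinase that drives entry into mitosis. Cdk1 at P7 stood at 66.8, 69.0, 64.6 and 75.9 CPM in HIE and 48.6, 42.9, 71.8 and 61.0 CPM in controls. Its P14 values were 17.8, 18.9, 14.1 and 13.04 CPM in HIE, 17.6, 10.02, 14.1 and 11.9 CPM in controls and 15.2, 14.3, 15.4 and 16.1 CPM in Hypoxia. At P7 the lowest control values were the litter P6H63, and 1 control of litter P6H55 was above 3 of the HIE animals. Cdk1 changed less with age than most of this group, by -2.06 (SE 0.18) in controls and -2.11 (SE 0.18) in HIE animals.

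Ccnb1, cyclin B1, is the partner that activates Cdk1. It measured 64.4, 60.4, 55.4 and 62.6 CPM in HIE and 49.3, 53.5, 56.2 and 43.4 CPM in controls at P7. It measured 8.80, 8.97, 8.79 and 6.22 CPM in HIE, 10.4, 5.40, 9.999 and 6.94 CPM in controls and 7.85, 6.62, 10.1 and 6.79 CPM in Hypoxia at P14. Both ages showed overlap between treatments, and the ages were far apart. Ccnb1 changed by -2.63 (SE 0.19) in controls and -2.89 (SE 0.19) in HIE animals.

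Plk1, polo-like kinase 1, acts on centrosomes, kinetochores and cytokinesis. The P7 CPM of Plk1 was 42.1, 43.3, 41.2 and 43.4 in HIE and 33.4, 31.6, 36.2 and 30.6 in controls. The P14 CPM of Plk1 was 6.02, 6.13, 3.94 and 4.13 in HIE, 4.87, 3.15, 5.19 and 4.06 in controls and 5.65, 3.46, 5.85 and 2.92 in Hypoxia. The P7 groups did not overlap under TMM scaling but did under library size, and within HIE at P14 the 2 animals of litter P4H1 were above the 2 of P6H12. With a log2 fold change of -2.93 (SE 0.22) in controls and -3.07 (SE 0.22) in HIE animals, Plk1 had the second largest fall of the 34 genes.

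Foxm1 encodes the transcription factor that drives many G2 and mitosis genes. It was at 69.0, 72.2, 59.6 and 69.0 CPM in HIE at P7 and at 62.0, 55.7, 64.4 and 50.7 CPM in the P7 controls. At P14 it was at 8.99, 10.9, 10.8 and 10.4 CPM in HIE, 11.3, 9.52, 12.8 and 11.7 CPM in controls and 12.5, 7.89, 12.5 and 10.8 CPM in Hypoxia. The treatments overlapped at both ages. Foxm1 fell by 2.36 (SE 0.14) in controls and by 2.71 (SE 0.14) in HIE animals on the log2 scale, with the smallest adjusted p of the 34 genes in both age comparisons (1.99e-09 and 5.76e-10, edgeR quasi-likelihood test). Foxm1 shares 144 exon bases with Tex52 and 97 with Gm44596 on the same strand, so part of its counts depended on how reads were divided. Of the 34 genes, 14 share exon bases with a gene on the opposite strand, and the strand setting of the counting is not given in the sources used here.

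Cdc25c, the phosphatase that switches Cdk1 on, had the lowest CPM, with a mean of 8.88 ± 0.73 CPM (SD, n = 4) in P7 controls and 1.41 ± 0.25 CPM (SD, n = 4) in P14 controls. Its log2 fold change was -2.66 (SE 0.24) in controls and -2.46 (SE 0.24) in HIE animals. The remaining members of the group, the cyclins Ccnb2 and Ccna2, the spindle pole kinase Aurka and the centrosome kinase Nek2, changed by -2.38 to -2.59 in controls and by -2.28 to -2.78 in HIE animals.

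The checkpoint and APC/C group held the largest fall. Ube2c, the ubiquitin-conjugating enzyme that works with the APC/C, changed by -2.96 (SE 0.25) in controls and -3.19 (SE 0.25) in HIE animals. Its mean fell from 33.7 ± 3.27 to 4.32 ± 1.57 CPM in controls and from 38.5 ± 3.55 to 4.21 ± 0.94 CPM in HIE animals (SD, n = 4 in each group). Mad2l1, the checkpoint protein that holds back Cdc20, changed least in the group, by -2.02 (SE 0.21) in controls and -1.88 (SE 0.20) in HIE animals. Bub1, Bub1b and Ttk, kinases of the same checkpoint, lay from -2.25 to -2.64.

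Cdc20 is the activator of the APC/C that the checkpoint restrains. Its CPM at P7 was 47.2, 44.7, 40.3 and 49.0 in HIE and 44.0, 46.9, 45.1 and 33.2 in controls. For P14 the CPM was 9.10, 10.3, 7.15 and 5.80 in HIE, 8.75, 5.61, 10.8 and 6.98 in controls and 7.41, 5.50, 7.53 and 7.12 in Hypoxia. No treatment stood apart at either age. Cdc20 changed by -2.40 (SE 0.20) in controls and -2.49 (SE 0.20) in HIE animals.

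The spindle group of Kif11, Kif2c, Kif4, Tpx2, Nusap1 and Hmmr, motors and microtubule-binding proteins, had a median log2 fold change of -2.20 in controls and -2.51 in HIE animals, and 6 of 6 were called lower in each. The cytokinesis group of Kif20a, Kif23, Prc1, Anln, Ect2 and Racgap1, proteins of the midzone and the contractile ring, had medians of -2.25 and -2.37, and again 6 of 6 were called lower. The same test called 26.0% of all genes lower in controls and 17.0% in HIE animals. Anln, anillin, a scaffold of the contractile ring, had the smallest change of all members in controls, -1.43 (SE 0.17), and changed by -1.86 (SE 0.17) in HIE animals. Of the other groups, kinases and cyclins had a median of -2.57 in controls, chromosome proteins of -2.06 and checkpoint and APC/C members of -2.36.

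**Figure D1:**
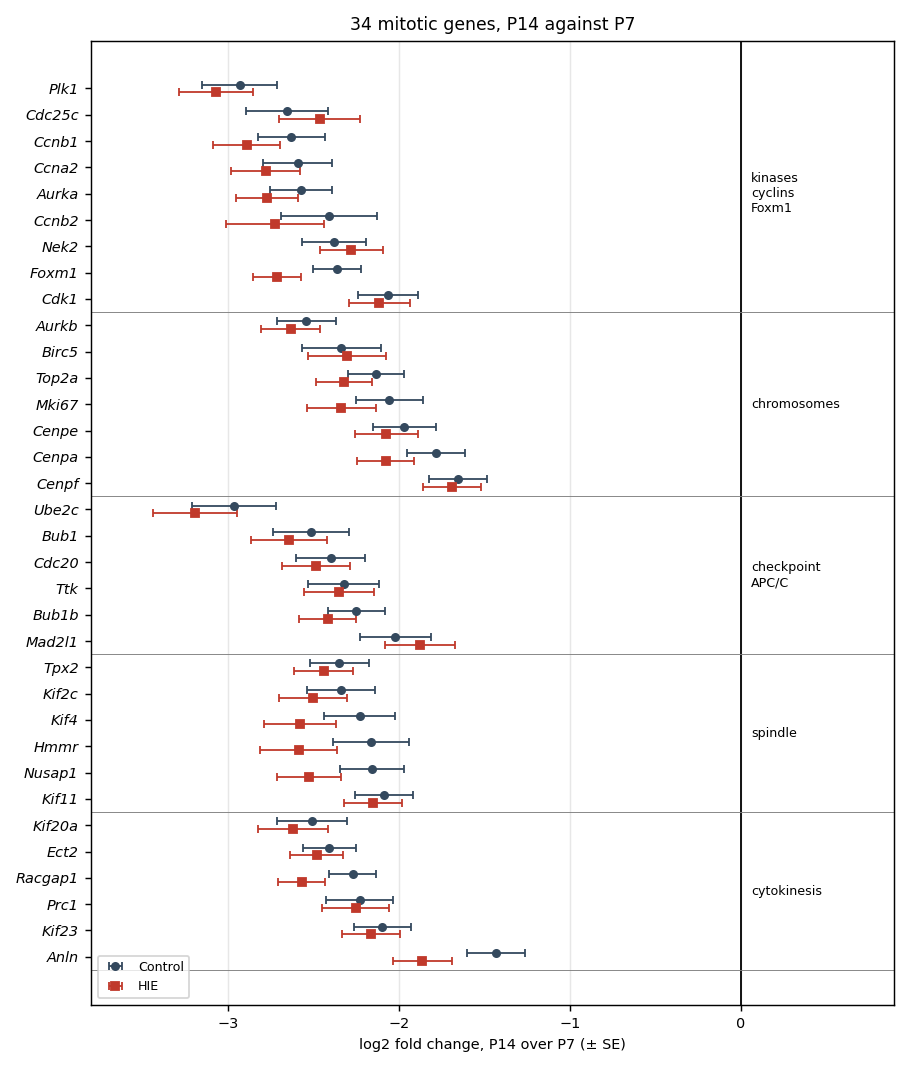
Log2 fold change from P7 to P14 with its SE (horizontal axis) for each of the 34 genes (vertical axis, by role), with circles for controls and squares for HIE animals (4 animals per group and age). Every point lies left of 0, from -3.19 for Ube2c in HIE animals to -1.43 for Anln in controls.

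**Figure D2:**
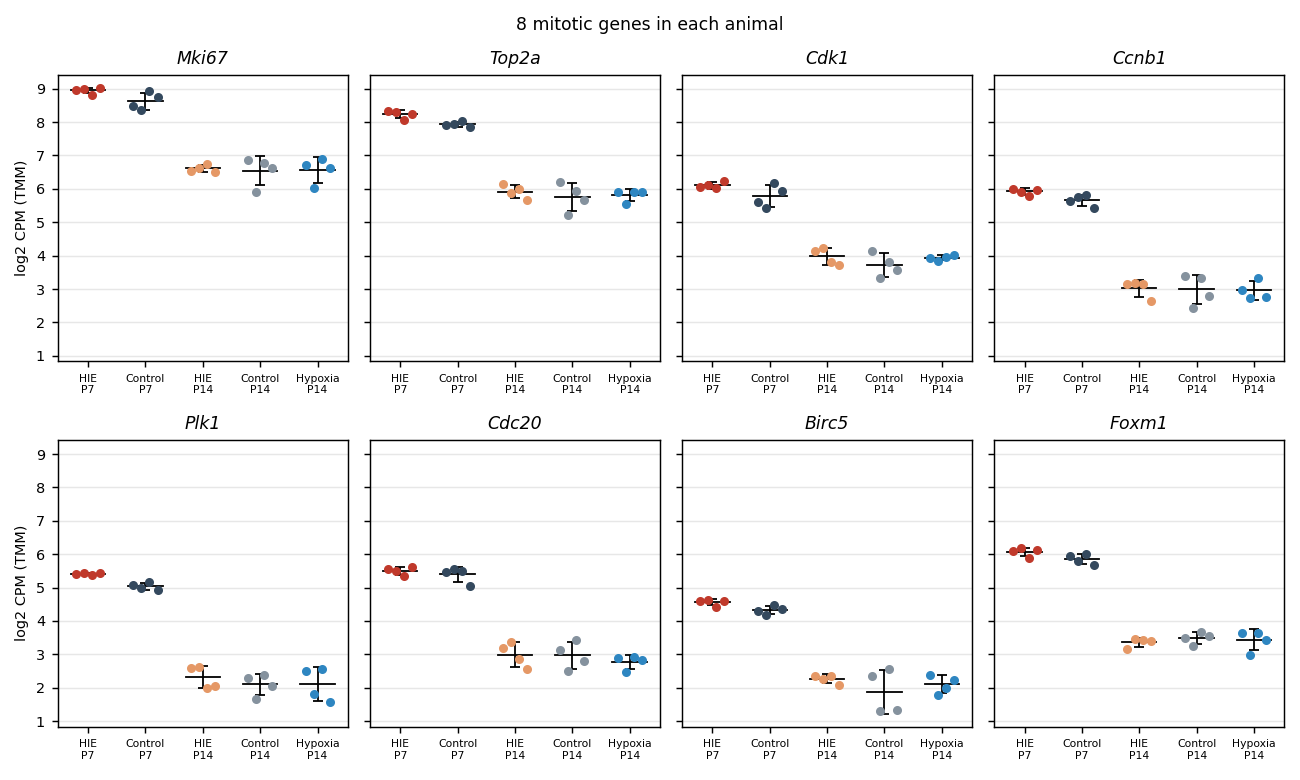
Log2 CPM after TMM scaling (vertical axis) of 8 members in each of the 20 animals by group, with points for animals, horizontal lines for group means and bars for the SD (n = 4). In each panel all 8 values at P7 lie above all 12 at P14, and within an age the groups lie close together.

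Whether the fall differed between roles was not tested. Per kilobase of the canonical transcript, P7 control levels ran from 4.07 CPM per kb for Ttk to 46.6 CPM per kb for Top2a, with a median of 13.1. In P14 controls the median of the same per-length levels was 2.95 CPM per kb. Ube2c was the third highest per length at P7, with 34.9 ± 3.38 CPM per kb in controls (SD, n = 4), below Mki67 at 38.9 ± 7.06, whose SD covers the gap between the 2 genes. At P14 the mean of Ube2c per length, 4.47 ± 1.62 CPM per kb, was less than that of Mki67, 9.35 ± 2.44.

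The age change in controls was of like size without the P7 litter that stood apart in microglia markers. Controls of litter P6H63 had low microglia markers, with a mean log2 CPM of 6.65 and 6.05 over 11 markers found, against 9.33 and 9.49 in litter P6H55 and 9.60 to 10.39 at P14. Without litter P6H63 the 34 genes were again all called lower from P7 to P14, with a median of -2.31 and a background of 19.2%. With control animals of the prefix P6H only at both ages, 34 of 34 were called against a background of 4.32%. The median was then -2.61, and litter P6H63 was kept in this fit. Without the P14 control of replicate number 2 the median was -2.18. Fewer dividing cells and less mitotic RNA per cell cannot be told apart in bulk samples.

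Markers of other cells moved with age too. The 6 oligodendrocyte markers were all called higher at P14 in controls and in HIE animals, where 22.0% and 18.7% of all genes were, and their summed level was 243 to 427 CPM over the P7 animals and 820.0 to 4931 CPM over the P14 animals. Of 8 granule cell precursor markers, 6 were called lower in controls and 4 in HIE animals, where 26.0% and 17.0% of all genes were, and their summed level was 205 to 995 CPM at P7 and 85.3 to 262 CPM at P14. Atoh1, which defines these precursors, had means of 6.54 CPM in P7 controls and 2.48 CPM in P7 HIE animals, and of 0.335 to 0.463 CPM in the P14 groups. The P7 control litters were unlike in these markers. The mean log2 CPM over the 8 was 6.08 and 6.38 in P6H63 and 3.92 and 4.47 in P6H55, against 3.94 to 4.82 in HIE animals. Of the 11 microglia markers 6 were called higher at P14 in controls and 1 in HIE animals, and none was called lower. In controls 6 of 7 endothelial, 4 of 5 mural and 4 of 8 astrocyte markers were called lower, and 1, 0 and 2 higher. In HIE animals 0, 0 and 1 of these were called lower, and 1, 2 and 2 higher. Whether the ages differ by treatment in these markers was tested only per gene, with none called, where 0.0% of all genes were. The part of these cells in the fall of the mitotic genes was not tested.

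**Figure D3:**
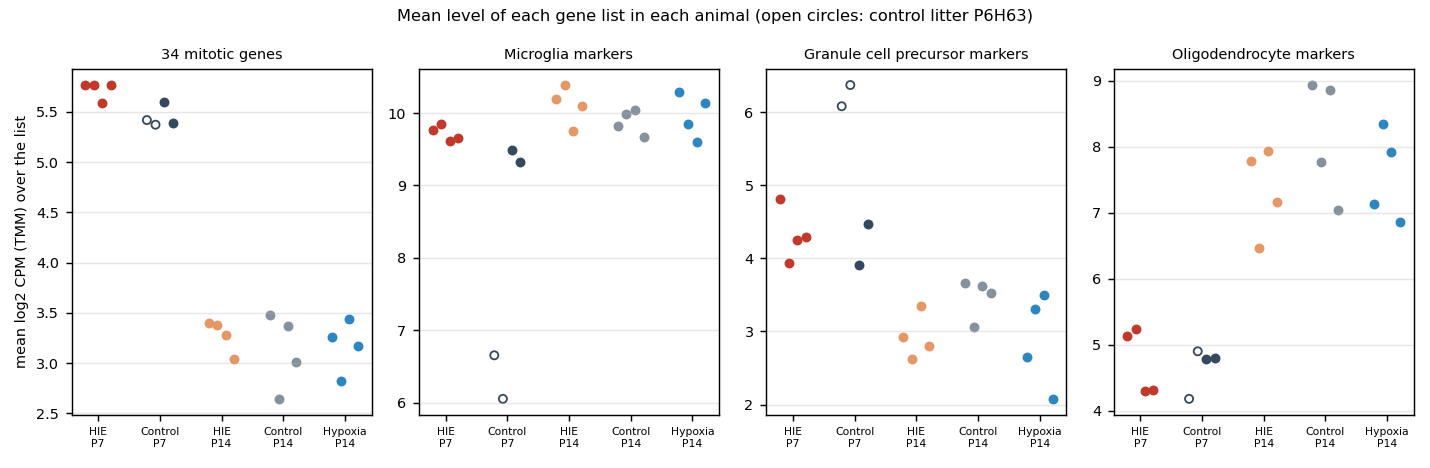
Mean log2 CPM (vertical axis) over the 34 mitotic genes and over 3 lists of cell type markers, a point for each animal by group, with open circles for control litter P6H63. The mitotic genes lie between 5.37 and 5.77 at P7 and between 2.64 and 3.48 at P14, while litter P6H63 is low for microglia markers and high for granule cell precursor markers.

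Most other genes of mitosis and S phase, from lists written with earlier results of these data known, were also called lower at P14. Of 64 further mitotic genes, 63 were called lower in controls and 63 in HIE animals, where 26.0% and 17.0% of all genes were. Their medians were -2.06 and -2.23, against -0.04 and 0.04 over all genes. The exception was Mad1l1, the partner of Mad2l1, at 0.15 (SE 0.11) in controls and 0.16 (SE 0.11) in HIE animals. The smallest adjusted p in controls went to Sgo2a, a protector of centromere cohesion (-2.57, SE 0.15), Lmnb1, lamin B1 (-2.46, SE 0.15), and Wee1, the kinase that keeps Cdk1 off (-2.18, SE 0.13). All 44 S-phase genes were called lower in both, against the same shares of all genes. Their medians were -1.86 in controls and -1.72 in HIE animals. Uhrf1, which carries DNA methylation through replication, changed by -3.08 (SE 0.14) in controls, and Rrm2, a subunit of ribonucleotide reductase, by -2.82 (SE 0.14).

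The subunits of the APC/C and its cofactors, many of which are present throughout the cell cycle, moved less. Of 16, 9 were called lower in controls and 9 in HIE animals and none higher, with medians of -0.37 and -0.29, where 26.0% and 17.0% of all genes were called lower and 22.0% and 18.7% higher. Ube2s, the enzyme that extends ubiquitin chains after Ube2c, changed by -0.84 (SE 0.09) in controls, and Fzr1, the activator that follows Cdc20, by -0.78 (SE 0.11). Of 22 genes that slow or stop the cycle, 11 were called lower and 2 higher in controls, and 12 lower and 3 higher in HIE animals, against the same shares of all genes. Ccng2, a cyclin G that goes with cell cycle arrest, rose by 1.22 (SE 0.21) in controls and by 0.62 (SE 0.21) in HIE animals, while Cdkn1a, the inhibitor p21, fell by 1.45 (SE 0.19) and by 2.37 (SE 0.20).

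**Figure D4:**
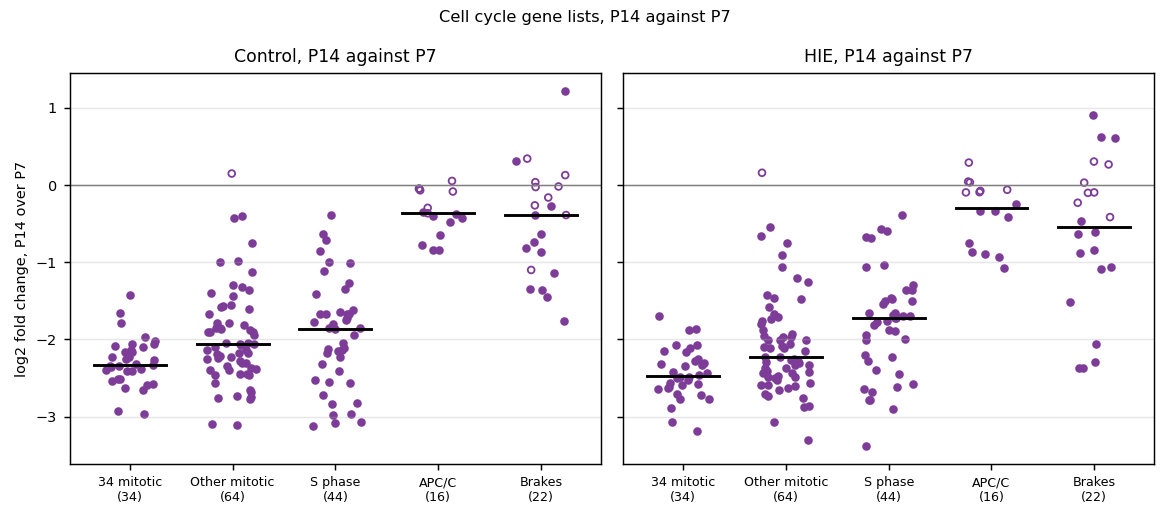
Log2 fold change from P7 to P14 (vertical axis) of each gene in 5 lists, in controls (left) and HIE animals (right), with filled points for an adjusted p under 0.05, open points for others and black lines for medians. The 34 genes have medians of -2.33 and -2.47, and the APC/C list has medians of -0.37 and -0.29.

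At P7, the count of mitotic genes called between HIE and control animals depended on the test. The edgeR quasi-likelihood test called 0 of the 34 genes, against a background of 0.0666% of all genes, and 18 of the 34 had an unadjusted p under 0.05, where 27.3% of all genes did. DESeq2 called 13 of the 34, all higher in HIE, against a background of 4.33% called higher. The log2 fold change was above 0 for 32 of 34 genes, with a median of 0.28 against -0.08 over all genes. Under library-size scaling it was above 0 for 24 of 34, with a median of 0.09 against -0.28 over all genes. The gap to all genes was 0.36 under TMM and 0.37 under library size. A change of scaling shifts all genes nearly alike, so this likeness was fixed in advance and tests nothing.

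Hmmr, a microtubule-binding protein of the spindle, had the smallest p. Its CPM was 50.3, 47.6, 44.3 and 47.0 in HIE and 29.0, 29.2, 37.4 and 34.4 in controls, without overlap. The log2 fold change was 0.53 (SE 0.11) with an adjusted p of 0.15 by the edgeR test. Nusap1, which bundles spindle microtubules, was at 58.8, 59.5, 50.1 and 50.6 CPM in HIE and 38.7, 37.6, 43.0 and 38.7 CPM in controls, with a log2 fold change of 0.46 (SE 0.09). Its groups were apart under TMM but not under library-size scaling. Plk1, with the values given above, had a log2 fold change of 0.36 (SE 0.08), and both shared the adjusted p of 0.15. At the other end, Cenpf was at 0.01 (SE 0.08), and Cdc25c and Nek2 were at -0.09 (SE 0.13) and -0.07 (SE 0.10).

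The HIE values lay above all control values for 12 of the 34 genes under TMM scaling, where 8.56% of all genes did so, and for 2, Ccnb2 and Hmmr, under library-size scaling, where 3.98% did. The TMM factors of the litter P6H63 controls were 1.25 and 1.19, while those of all other animals were 0.889 to 1.05. Against the P6H63 controls alone 24 of 34 genes were called higher, where 27.7% of all genes were, and the median was 0.39. Against the P6H55 controls alone 0 of 34 were called, where 0.112% of all genes were, and the median was 0.23. Without the control with replicate number 3, of litter P6H55, 17 of 34 were called higher, where 8.42% of all genes were.

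The order of the P7 animals in mitotic level turned with the scaling. Under TMM the mean log2 CPM over the 34 genes was 5.42 and 5.37 in litter P6H63 and 5.60 and 5.39 in litter P6H55, and it was 5.58 to 5.77 in the HIE animals. Under library size it was 5.74 and 5.63 in litter P6H63, 5.60 and 5.42 in P6H55 and 5.55 to 5.72 in HIE, so one P6H63 control lay within the HIE range and the other just above it. Over the 8 granule cell precursor markers the TMM mean was 6.08 and 6.38 in litter P6H63, 3.92 and 4.47 in P6H55 and 3.94 to 4.82 in HIE. All 11 microglia markers had a log2 fold change above 0 in HIE against controls and all 8 granule cell precursor markers one below 0. None of these markers was called by the edgeR test, where 0.0666% of all genes were. Summed over the list, microglia markers reached 1355 to 2079 CPM in litter P6H63 and 13242 to 15120 CPM in P6H55, against 16938 to 19189 CPM in HIE animals. What these cells contributed to the mitotic values was not tested. No HIE animal at P7 was labelled female, so sex and treatment were partly confounded there. With animals labelled male only, 32 of 34 genes were above 0, with a median of 0.20 against -0.04 over all genes. That fit called 0 of 34, where 0.0559% of all genes were called. The controls are also labelled days 8 to 11 against day 7 for HIE, and the 34 genes were lower at P14 than at P7, so labelled age and treatment cannot be told apart in this comparison.

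**Figure D5:**
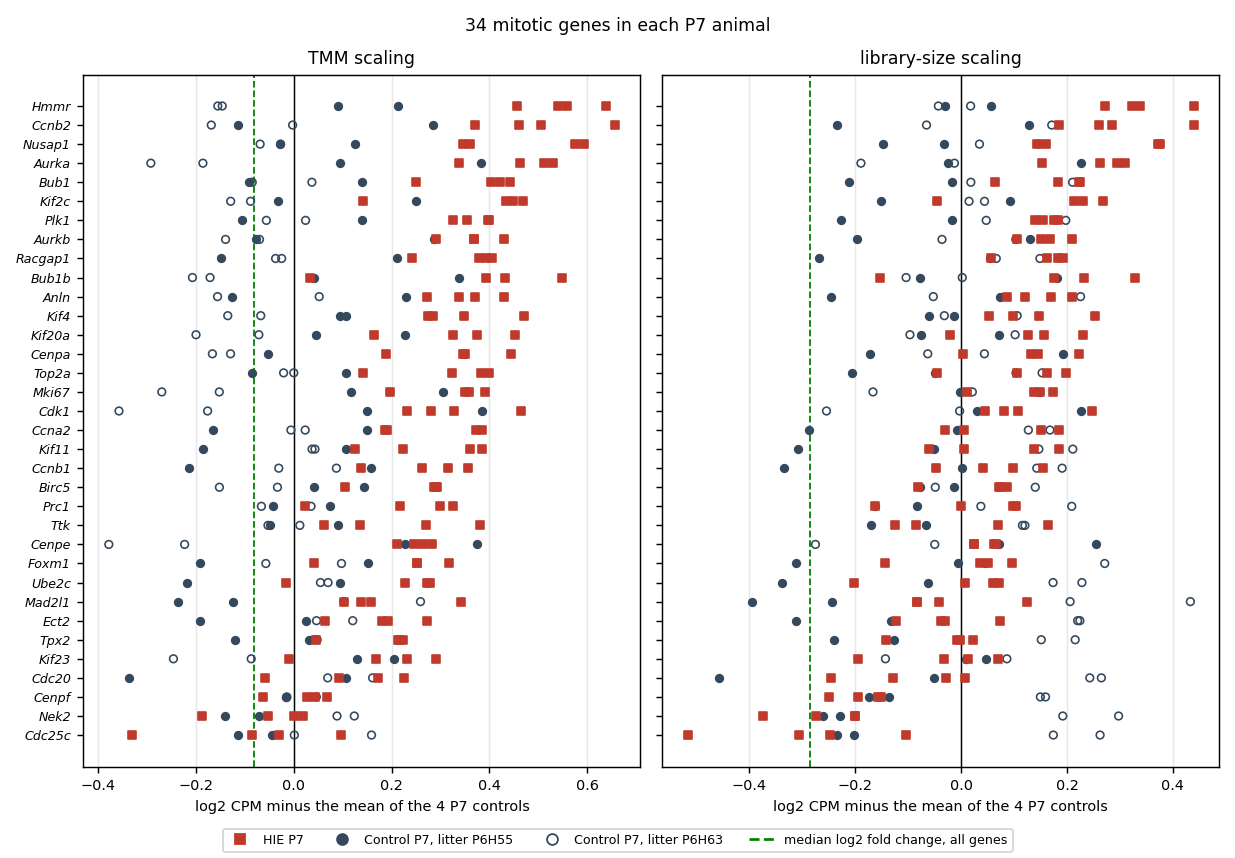
For each of the 34 genes (vertical axis), log2 CPM in each P7 animal minus the mean of the 4 controls (horizontal axis), under TMM (left) and library-size scaling (right), with squares for HIE animals, filled circles for litter P6H55, open circles for litter P6H63 and a dashed line for the median log2 fold change of all genes. The HIE squares lie clear of the controls for 12 genes on the left and for 2 on the right.

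At P14 none of the 34 genes separated by treatment. HIE against controls gave 0 of 34 called, as for all genes (0.0%), where 2017 genes had an unadjusted p under 0.05 and DESeq2 called 239 genes, or 1.1%, and 0 of the 34. The median of the 34 was 0.09, and 27 were above 0. Single animals moved this: without the control of replicate number 2 the median was -0.043 with 12 above 0, and without the control of replicate number 1 it was 0.25 with 32 above 0. The smallest p belonged to Cdk1 at 0.23 (SE 0.17), Mad2l1 at 0.30 (SE 0.23) and Aurkb at 0.24 (SE 0.20), with adjusted p values of 0.736 to 0.768 by the edgeR test. At SEs of this size a change like the P7 median was not detectable.

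Hypoxia against controls at P14 gave 0 of 34 called (background 0.0%), and 15 of 34 lay above 0, with a median of -0.01. It ranged from -0.12 with 4 above 0, without the control of replicate number 2, to 0.17 with 30 above 0, without the control of replicate number 1. Cdc20 at -0.25 (SE 0.22), Ube2c at -0.28 (SE 0.29) and Cdk1 at 0.16 (SE 0.17) had the smallest p. HIE against Hypoxia likewise gave 0 of 34 (background 0.0%), with a median of 0.10, or -0.01 without the Hypoxia animal of replicate number 2, and the smallest p for Aurkb at 0.29 (SE 0.20), Kif11 at 0.24 (SE 0.19) and Cdc20 at 0.24 (SE 0.22). DESeq2 called 127 genes (0.586%) in the first and 22 genes (0.101%) in the second of these comparisons, and none of the 34 in either. In none of the 3 comparisons did any of the 34 genes separate without overlap, where 5.15% of all genes did in HIE against controls, 4.85% in Hypoxia against controls and 2.65% in HIE against Hypoxia. The comparisons share their animals, so they are not independent of each other.

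At P14 the mitotic genes were apart between the litters of the controls. The 2 animals of litter P4H4 were above the 2 of P6H8 without overlap for 31 of 34 genes under TMM, where 21.9% of all genes were, by a median of 0.60 on the log2 scale. Under library size they were for 25, where 16.0% of all genes were, by a median of 0.51. In HIE animals litter P4H1 was above P6H12 without overlap for 20 of 34 genes under TMM, where 26.0% of all genes were. Under library size it was for 8, where 14.7% were, and the median fell from 0.27 to 0.10. Litter P4H1 was below for 2 genes under TMM and 6 under library size, where 27.3% and 38.9% of all genes were. In Hypoxia animals litter P6H7 was above P6H9 without overlap for 4 of 34 genes under TMM, where 23.9% of all genes were, and below for 0, where 23.4% were. Under library size it was above for 2, where 10.5% were, and below for 5, where 34.5% were. The median turned from 0.12 to -0.03. The mean log2 CPM over the 34 genes was 3.26 and 3.17 in P6H7 and 2.82 and 3.44 in P6H9, so these litters overlapped. The differences between litters were not tested. Of the 12 P14 animals, the control with replicate number 2, of litter P6H8, was the lowest for 23 of 34 genes and a Hypoxia animal, replicate number 2 of litter P6H9, for 6. Within the prefix P6H, all 34 genes were above 0 in Hypoxia against controls, with a median of 0.31, and 33 of 34 in HIE against controls, with a median of 0.32, and none was called in either, where 0.0% and 0.0141% of all genes were. HIE against Hypoxia had 28 of 34 genes above 0 with all animals, but 13 of 34 within P6H, with a median of -0.02. None of the 34 was called in that fit, where 0.0% of all genes were. Within the prefix P4H the median of HIE against controls was -0.04 with 9 of 34 above 0, and 0 of 34 were called, against 0.0704% of all genes.

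The spread between animals was wider at P14. The median SD over the 34 genes was 0.10 in HIE and 0.15 in controls at P7, and 0.24 in HIE, 0.41 in controls and 0.28 in Hypoxia animals at P14, on the log2 CPM scale. Repeat libraries of the same animal, which 2 HIE animals at P14 had, differed by a median of 0.11 and 0.19 over the 34 genes, with largest differences of 0.39 and 0.53. These are absolute differences in log2 CPM under library-size scaling, whereas the SDs are under TMM, so the measures are unlike. The P14 libraries were shallower than the P7 libraries and the genes lower. The 2 HIE animals with repeat libraries had summed totals of 76166750 and 70491723 counts. The part of counting error in the wider spread was not tested.

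Whether the HIE effect changed with age was tested as an interaction. None of the 34 genes passed (background 0.0% of all genes by the edgeR test, where 3529 genes had an unadjusted p under 0.05 and DESeq2 called 701 genes, or 2.86%, and 0 of the 34). Under TMM scaling the estimate was below 0 for 30 of 34 genes, with a median of -0.13. Leaving out a P14 control moved this median from -0.030 with 21 below 0 (replicate number 1) to -0.27 with 33 below 0 (replicate number 2). Under library-size scaling it was below 0 for 16 of 34, with a median of 0.01. Foxm1 at -0.35 (SE 0.19), Anln at -0.43 (SE 0.24) and Racgap1 at -0.30 (SE 0.18) had the smallest p, with adjusted p values of 0.402 to 0.458 by the edgeR test.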

How the data were processed

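Bulk RNA sequencing data of CD11b+ brain cells were analyzed, 22 libraries from 20 mice. The authors prepared libraries with a stranded total RNA kit after removal of ribosomal RNA, mapped reads to GRCm39 with Sentieon's STAR 2.7.10b, and estimated expected counts per gene with RSEM 1.3.1. The expected counts were deposited without normalization, and 84.2 to 88.0% of the values in each library were whole numbers. The annotation release and strand setting are not given in the sources used here.

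Expected counts of libraries from the same animal were summed and rounded. Of 56691 genes, 56017 matched GENCODE M39 and 674 did not. Genes were tested with edgeR 4.0.16 (quasi-likelihood, default fit; R 4.3.3), with TMM scaling, the filterByExpr filter (minimum count 10) and Benjamini-Hochberg adjustment over all genes tested, with a threshold of 0.05. The 8 P7 animals and the 12 P14 animals were fitted apart for treatment, and all 20 together for age and for the interaction. Alternatives were DESeq2 1.42.0 and its size factors, library-size scaling, no filter, only the groups compared, sex or name prefix as a term, males only, each P7 control litter or P14 prefix alone, first libraries only and leaving out each animal. Log2 CPM used a prior count of 2. The 3-count floor was 0.0339 to 0.0960 CPM over the animals. The fits were tested on simulated data.

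Named genes were 8 members with per-animal values, the 3 largest and 3 smallest changes with age, the 3 smallest p in each treatment comparison, and up to 3 genes with the smallest adjusted p per direction of each other list. Further values of single genes, such as the per-animal levels of Hmmr and Nusap1, and Mad1l1 and Hba-a1, were chosen after they were seen. The members and lists were chosen with earlier results of these data known.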

Additional observations from a re-analysis of the deposited data

Results flagged for a closer look

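Each of the 34 genes was checked in each of the 5 groups of 4 animals for a single animal far from the other 3, as the gap to the nearest animal over the range of the group by Dixon's test. Of 170 groups, 16 held such an animal, where chance gives about 1 in 20 groups. The genes share animals, so these are not 16 separate events.

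An HIE animal at P7, replicate number 3 of litter N8, was the lowest of its group for Kif2c (log2 CPM of 4.79), Tpx2 (6.18), Birc5 (4.42), Ube2c (5.06) and Racgap1 (6.502). The highest animal of the group was at 5.12 for Kif2c and at 6.67 for Racgap1. Among the P7 controls, replicate number 4 was the lowest for Tpx2 (6.02) and Ube2c (4.85), replicate number 3 the highest for Aurkb (5.05), and replicate number 2 the highest for Cenpf (6.91). Without the control with replicate number 3 the edgeR test called 17 of the 34 genes at P7 in place of 0. It then called 8.42% of all genes higher.

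At P14, HIE replicate number 4 was the lowest for Ccnb1 (2.64) and Aurkb (2.25), and HIE replicate number 1 for Cenpa (2.99). Hypoxia replicate number 2 was the lowest for Top2a (5.54) and Nusap1 (2.76), and Hypoxia replicate number 3 the highest for Ect2 (3.34) and Nek2 (2.69).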

How the results depend on the processing

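The fall of the 34 genes from P7 to P14 was called for 34 of 34 in controls and in HIE animals under every alternative run. In the main runs 26.0% and 17.0% of all genes were called lower. The P7 count of members called between HIE and control animals was 0. It moved to 13 with DESeq2, where 4.33% of all genes were called higher. With the P6H63 controls alone it was 24, where 27.7% were. It ran over 0 to 17 as each animal was left out, the 17 without the control of replicate number 3, where 8.42% were. It was 0 with the P6H55 controls alone, where 0.112% of all genes were called in either direction. Single genes that changed sign were Aurkb in HIE against control at P14 within the prefix P4H, at -0.014, Cdc20 (0.11) and Ube2c (0.26) in Hypoxia against control within P6H, and Cdc20 in HIE against Hypoxia within P6H, at -0.077. The alternatives within P4H, and those within P6H for HIE against control at P14 and for the age change in controls, were added after seeing the data. The causes were not tested.

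Counts over all genes moved more. At P7, 15 genes became 3024 with DESeq2, 13904 with the P6H63 controls, 26 with the P6H55 controls, and 10 to 5588 as each animal was left out. At P14, 0 genes in HIE against control became 239 with DESeq2, 15 within P4H, 3 within P6H, 2 with no filter, 1 with only the 2 groups and 0 to 4 as each animal was left out, 0 in Hypoxia against control became 127, 1 with no filter, 2 with only the 2 groups and 0 to 2, and 0 in HIE against Hypoxia became 22, 2 with only the 2 groups and 0 to 1. The age count in controls, 11775, became 2584 within P6H and 7363 with only the 2 groups, and the interaction, 0, became 701 with DESeq2 and 0 to 1692 as each animal was left out. No paired analysis was possible because the replicate numbers follow accession order and each litter holds a single treatment. With 4 animals per group, differences at P14 below the spread between animals were not detectable.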

Other observations

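S-phase genes at P14 showed values that the comparisons above do not cover. Of 44 S-phase genes, 43 had a log2 fold change above 0 in HIE against controls, with a median of 0.24 against 0.01 over all genes, and 41 in Hypoxia against controls, with a median of 0.20 against -0.02. None was called in either comparison by the edgeR test, where 0.0% of all genes were, and both use the same control animals. Their mean log2 CPM was 2.82 to 3.21 in HIE, 2.52 to 2.93 in control and 2.80 to 3.15 in Hypoxia animals. The controls of litter P4H4, at 2.93 and 2.83, lay within the HIE range, and those of litter P6H8, at 2.52 and 2.60, lay below it. Over the 34 mitotic genes the ranges were 3.04 to 3.40, 2.64 to 3.48 and 2.82 to 3.44.

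Erythroid genes also varied among the P14 animals. Hba-a1, a hemoglobin gene, had means of 1.53 ± 0.36 CPM in P7 controls and 2.24 ± 1.21 CPM in P7 HIE animals (SD, n = 4). At P14 it ran from 44.7 to 801 CPM in controls, from 65.5 to 198 CPM in HIE and from 19.6 to 323 CPM in Hypoxia animals.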
